A study of Mus musculus with 7 samples.

Results

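The 35 genes described here encode the enzymes that bring pyruvate into the tricarboxylic acid (TCA) cycle, the enzymes of the cycle itself with complex II, and the enzymes that join it to aspartate, glutamate and NADPH. They were taken by gene symbol from a list with no cut on their values, although earlier results of these data were known when it was made. All 35 were found among the 24346 genes of the table. Levels are in FPKM, fragments scaled by transcript length and by library size. All 35 also passed the filter, a mean over the 7 animals of 1 FPKM or more, as did 12988 genes in all.

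Bulk RNA-seq was performed on the cerebral cortex of male mice at postnatal day 100, on a C57BL/6J background. CrT-/y mice (n = 4, labelled KO) lack exons 5-7 of Slc6a8 in every cell, the X-linked gene of the creatine transporter. CrT+/y mice (n = 3, labelled WT) are littermates with the intact gene, and males have 1 X chromosome. Each animal gave 1 library, so n counts animals. Because the deletion is present in the whole body, a change in cortex cannot be assigned to a cell type, and in bulk tissue fewer cells of a type and less RNA per cell cannot be told apart.

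Creatine and phosphocreatine buffer ATP in cells with a high and changing energy demand, such as neurons, and the transporter carries creatine across the cell membrane. The pyruvate dehydrogenase (PDH) complex turns pyruvate into acetyl-CoA, its kinases switch it off and its phosphatases switch it on. The cycle then oxidises acetyl-CoA, feeds NADH and succinate to the respiratory chain, and in brain also supplies the carbon of glutamate and aspartate.

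Slc6a8 (chromosome X, 73673150-73682502, mm10) was listed at 12.4, 14.9, 14.7 and 15.7 FPKM in CrT-/y replicates 0, 1, 2 and 3, and at 32.3, 29.6 and 28.0 FPKM in CrT+/y replicates 1, 2 and 3. The groups did not overlap, and the log2 fold change was -1.05 (SE 0.087, limma adjusted p = 0.0024). The table gives 1 value over the whole gene, so the deleted exons could not be looked at separately. What 1 read is worth in weakly expressed genes gave the depth of the libraries relative to CrT-/y replicate 0, which ranged from 0.903 to 1.25 in CrT-/y and from 0.872 to 1.08 in CrT+/y animals. The marker lists of the cells that a cortex sample can hold were also summed. Endothelial markers gave 95.8 to 112 FPKM in CrT-/y and 112 to 131 in CrT+/y animals, with 3 of 5 called lower (Pecam1, Flt1 and Ly6c1). Oligodendrocyte markers gave 854 to 1310 against 1190 to 1560 FPKM and excitatory neuron markers 1550 to 1680 against 1570 to 1910, with 0 of 6 and 2 of 7 called. Astrocyte markers gave 827 to 901 against 859 to 1040 FPKM, with 1 of 7 called lower, and ependyma and choroid plexus markers reached 51.9 FPKM in CrT-/y and 393 in CrT+/y animals, with none called. Olfactory bulb markers gave 5.95 to 16.3 FPKM in CrT-/y and 2.91 to 5.24 in CrT+/y animals, which did not overlap, with Cdhr1 called higher. None of these markers was at 0 in all animals, and their part in the results below was not tested.

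Of the 35 members, 6 were called lower in CrT-/y cortex and 0 higher at a limma adjusted p below 0.1, the threshold of the study. In the same test 10.1% of all 12988 genes were called, 7.25% lower and 2.9% higher. The 6 were Pdp1, Idh3b, Nnt, Sucla2, Dld and Sdha, which act at different steps from the activation of PDH to complex II and NADPH. At an unadjusted p below 0.05, 9 members were lower and 1 was higher, or 28.6% in all. This total is near the share over all genes tested, which was 25.0%. By direction, 16.8% of all genes tested were lower and 8.19% higher, beside 9 and 1 of the 35 members. The fold changes lay on both sides of 0, with 18 members below and 17 above, and their median of -0.01 on the log2 scale stood beside a median of -0.03 over all genes tested. All 4 CrT-/y animals lay below all 3 CrT+/y animals for 10 members, or 28.6%, against 15.0% of all genes tested. All 4 lay above for 0 members, against 6.57% of all genes. In the other 25 members the groups overlapped.

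**Figure D1:**
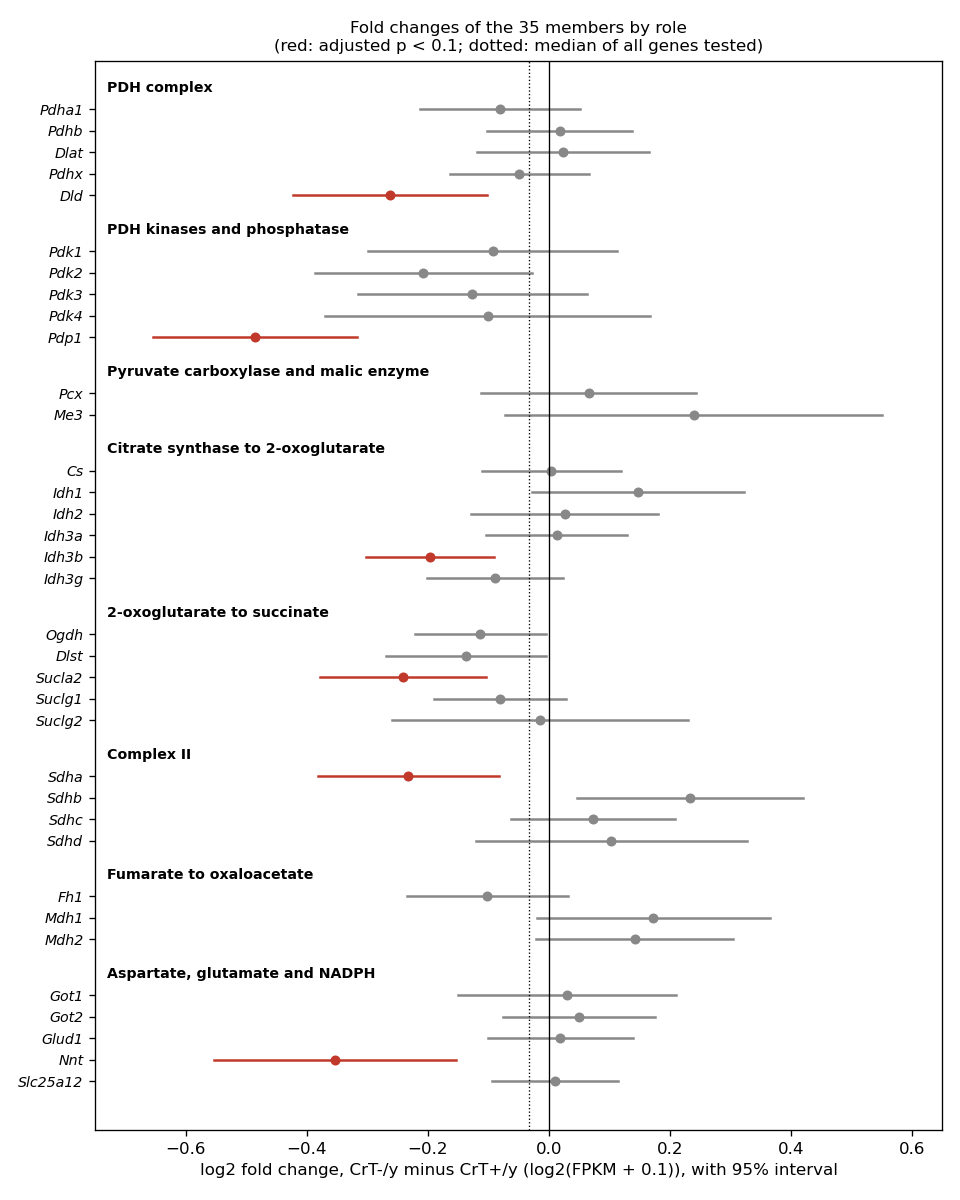
Log2 fold change of each of the 35 members (CrT-/y, n = 4, minus CrT+/y, n = 3, on log2(FPKM + 0.1)) with its 95% interval, grouped by role; red marks an adjusted p below 0.1 and the dotted line the median of all genes tested. The 6 red members lie between -0.49 and -0.20, and the intervals of most other members include 0.

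Pdp1, the catalytic subunit of the phosphatase that reactivates PDH, showed the largest difference of the 35 in size. It was listed at 43.2, 43.3, 43.3 and 42.2 FPKM in CrT-/y and at 59.1, 68.3 and 54.2 FPKM in CrT+/y animals. The CrT-/y animals lay within about 1 FPKM of each other and all below the lowest CrT+/y animal. The CrT-/y mean of 43.0 ± 0.552 (SD, n = 4) was 71.0% of the CrT+/y mean of 60.5 ± 7.19 (SD, n = 3), a log2 fold change of -0.49 (SE 0.075, limma adjusted p = 0.0253). It was the only member called under all 19 alternative settings, with log2 fold changes between -0.56 and -0.40 and adjusted p between 0.00363 and 0.0986. Pdp1 lies on chromosome 4 (11958184-11966452, minus strand, mm10). Pdp2, the other phosphatase gene, was far lower at 2.92 to 3.61 FPKM and was not called (log2 fold change -0.07, limma adjusted p = 0.70), so that Pdp1 made up 92.6 to 93.5% of their summed FPKM in CrT-/y and 94.2 to 95.8% in CrT+/y animals.

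The 4 PDH kinases, which phosphorylate and inactivate the complex, were all slightly lower on average and none was called. Pdk2 was the most abundant kinase at 52.5, 51.3, 45.9 and 57.6 FPKM in CrT-/y and 63.2, 60.0 and 55.9 FPKM in CrT+/y animals. CrT-/y replicate 3 lay above CrT+/y replicate 3, and the log2 fold change of -0.21 had a limma adjusted p of 0.154. Pdk1 lay between 16.7 and 20.6 FPKM, Pdk3 between 12.3 and 15.9 FPKM and Pdk4 between 3.64 and 4.99 FPKM over the 7 animals. Their log2 fold changes of -0.09, -0.13 and -0.10 had limma adjusted p of 0.56, 0.38 and 0.63. Pdk2 made up 57.0 to 61.1% of the summed kinase FPKM in CrT-/y and 58.7 to 62.5% in CrT+/y animals, ranges that overlap. The summed kinases divided by Pdp1 gave 2.04, 1.94, 1.86 and 2.28 in CrT-/y and 1.71, 1.42 and 1.76 in CrT+/y animals. This ratio was formed after the values were seen and carries no test.

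Among the subunits of the PDH complex, only Dld was called. Dld encodes dihydrolipoamide dehydrogenase, the E3 subunit that the PDH and 2-oxoglutarate dehydrogenase complexes share. It was listed at 65.7, 61.5, 62.4 and 60.9 FPKM in CrT-/y and at 81.2, 77.8 and 67.0 FPKM in CrT+/y animals. The groups did not overlap, although CrT+/y replicate 3 was close to CrT-/y replicate 0, and Dld fell by 0.26 on the log2 scale (SE 0.071, limma adjusted p = 0.0725). The genes of the E1 subunits, Pdha1 (89.7 to 93.3 FPKM in CrT-/y, 91.9 to 105 in CrT+/y) and Pdhb (74.5 to 80.6 and 74.2 to 79.9 FPKM), gave log2 fold changes of -0.08 and 0.02. The gene of the E2 subunit, Dlat, had 28.5 to 29.5 and 26.7 to 31.2 FPKM, and that of the E3-binding protein, Pdhx, had 18.1 to 19.1 and 18.6 to 19.5 FPKM, with log2 fold changes of 0.02 and -0.05. Limma adjusted p for these 4 genes lay between 0.43 and 0.86. An exon of Map3k15 on the other strand covers 603 bases of Pdha1 exons, and whether counting used strand is not given in the sources used here. Map3k15 itself was listed at 0.249 to 0.516 FPKM.

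The sequence upstream of Dld is shown because it is a called member whose window of 250 bases before the RefSeq start holds no annotated exon. It lies at chr12:31351472-31351721 (GRCm38.p6, minus strand, 5′ to 3′), with the letters CCAAT in capitals.
Dld: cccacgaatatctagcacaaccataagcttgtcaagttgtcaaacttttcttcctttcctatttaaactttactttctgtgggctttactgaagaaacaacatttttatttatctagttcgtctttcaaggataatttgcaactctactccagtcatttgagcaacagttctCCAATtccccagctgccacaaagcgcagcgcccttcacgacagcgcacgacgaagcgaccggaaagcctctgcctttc
Promoters from RefSeq, each 300 bases long with 50 bases after the start, were found for 31 of the 35 members and came to 40 windows. None was found for Idh3a, Nnt, Pdp1 and Sdhc. Motifs and GC content were taken only from the 250 bases before each start. Searched on both strands, the letters CCAAT were present in 20 of the 40 windows, or 50.0%, against 33.8% of all 32851 windows. These windows came from 17 of the 31 genes. GCGCATGC, a motif of the factor NRF1, was present in 4 of the 40 windows against 2.26% of all. These windows came from only 3 genes, because overlapping windows of Ogdh hold the same GCGCATGC. CCGGAAG, a core of ETS factor motifs, was present in 7.5% against 6.91%, and TATAAA in 2.5% against 12.4%. TCAAGGTCA, a motif of oestrogen-related receptors, was present in 0 of the 40 windows against 0.387% of all windows. The median GC content of the members' windows was 60.8%, against 52.4% of all windows, and the windows of a gene can overlap each other. These are matches of letters and not binding sites.

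Pyruvate carboxylase and the malic enzyme Me3 were not called. Pcx, pyruvate carboxylase, which is mainly an astrocyte enzyme in brain, was listed at 21.2 to 23.1 FPKM in CrT-/y and 19.3 to 24.2 FPKM in CrT+/y animals, with a log2 fold change of 0.07 (limma adjusted p = 0.64). Me3, a mitochondrial NADP-dependent malic enzyme, was listed at 14.9, 19.6, 19.6 and 13.0 FPKM in CrT-/y and at 14.6, 13.6 and 13.7 FPKM in CrT+/y animals. CrT-/y replicates 1 and 2 were high and the other two lay close to or under the CrT+/y animals. The log2 fold change of 0.24 had an SE of 0.14 and a limma adjusted p of 0.31. Me3 had the largest coefficient of variation of the 35 members within the CrT-/y group, with an SD of 3.35 FPKM on a mean of 16.8 FPKM.

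From citrate synthase to 2-oxoglutarate, the subunits of the NAD-dependent isocitrate dehydrogenase differed among themselves. This enzyme is built of the catalytic subunit Idh3a with Idh3b and Idh3g. Idh3b was listed at 131, 129, 130 and 128 FPKM in CrT-/y and at 152, 145 and 149 FPKM in CrT+/y animals. Both groups were tight and did not overlap, and Idh3b fell by 0.20 on the log2 scale (SE 0.047, limma adjusted p = 0.0576). Idh3g was listed at 84.1, 80.02, 78.7 and 84.4 FPKM against 88.1, 86.6 and 86.1 FPKM, which did not overlap either, but its log2 fold change of -0.09 was not called (limma adjusted p = 0.29). Idh3a was listed at 85.0, 80.2, 81.8 and 83.3 FPKM against 82.7, 77.9 and 84.8 FPKM, with a log2 fold change of 0.01 (limma adjusted p = 0.90).

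The ratio of subunits within an animal does not depend on a scaling factor of the library. Idh3b over Idh3a was 1.55, 1.61, 1.59 and 1.54 in CrT-/y and 1.83, 1.86 and 1.76 in CrT+/y animals. Its mean log2 value was lower by 0.21 in CrT-/y animals, from 0.86 to 0.65, and the groups did not overlap. Idh3g over Idh3a was 0.989, 0.998, 0.962 and 1.01 against 1.07, 1.11 and 1.02, again without overlap. Each of these 2 ratios had an exact permutation p of 0.0286 (two-sided), the smallest that the 35 splits of 4 against 3 animals allow. Adjusted over the 19 ratios compared, the p was 0.271 for both, so neither passed. Idh3g lies on the X chromosome (73778963-73786897, minus strand, mm10), 96.5 kb from the deleted Slc6a8 gene. Idh3b lies on chromosome 2 (130279309-130284547, minus strand), where it shares 5 exonic bases with Nop56 on the other strand.

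**Figure D2:**
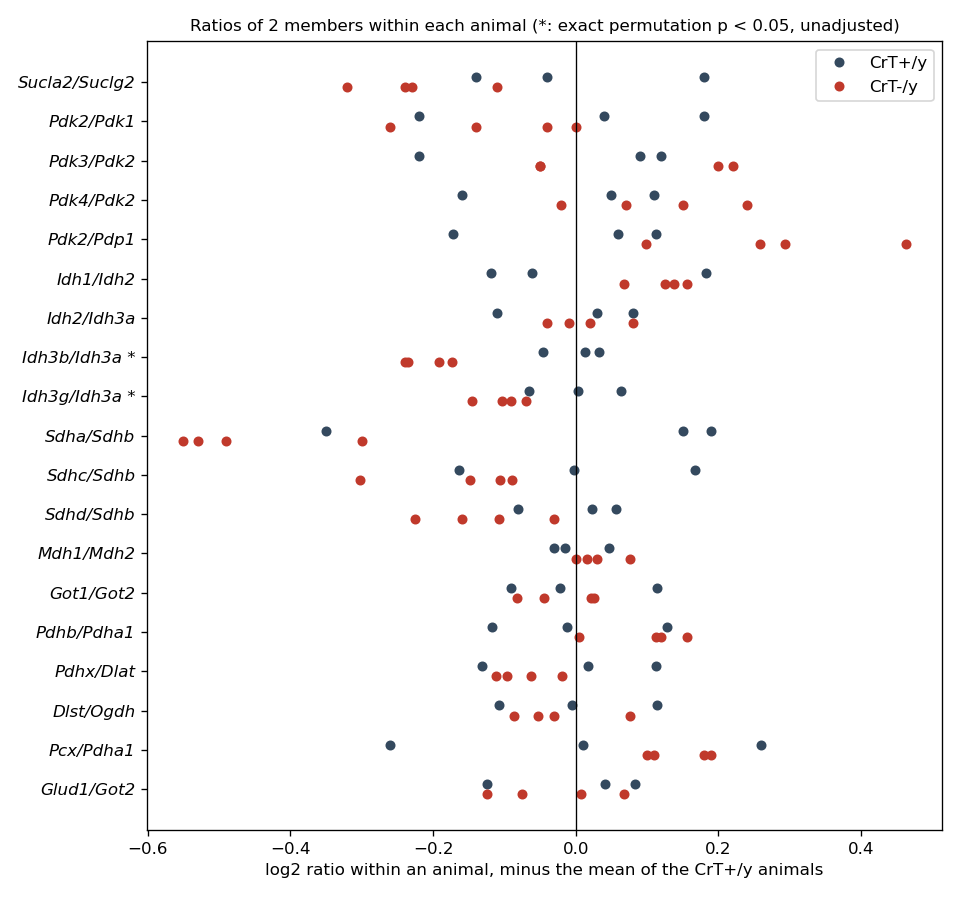
Log2 ratio of 2 members within each animal for the 19 ratios, shown minus the mean of the CrT+/y animals; each point is 1 animal. Idh3b/Idh3a and Idh3g/Idh3a, marked with an asterisk, are the 2 ratios in which the 4 CrT-/y animals lie apart from the 3 CrT+/y animals. Neither passed after adjustment (adjusted exact permutation p = 0.271), which so few animals could hardly allow.

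Cs, citrate synthase, the first enzyme of the cycle, had nearly the same mean in both groups. It was listed at 96.2, 94.1, 96.4 and 96.1 FPKM in CrT-/y and at 97.0, 90.4 and 99.1 FPKM in CrT+/y animals, and the log2 fold change was 0.00 with a 95% interval from -0.11 to 0.12. Idh1 and Idh2, the cytosolic and mitochondrial NADP-dependent isocitrate dehydrogenases, were listed at 18.5 to 20.5 against 15.9 to 19.6 FPKM and at 14.4 to 15.4 against 13.6 to 16.0 FPKM. Their log2 fold changes of 0.15 and 0.03 were not called (limma adjusted p = 0.27 and 0.84).

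From 2-oxoglutarate to succinate all 5 members had a fold change below 0, and 1 of them was called. Sucla2, the subunit that makes the succinate-CoA ligase specific for ADP, was listed at 78.8, 76.5, 76.3 and 79.0 FPKM in CrT-/y and at 100, 89.2 and 86.3 FPKM in CrT+/y animals. The groups did not overlap, and Sucla2 fell by 0.24 on the log2 scale (SE 0.061, limma adjusted p = 0.0627). Its partner Suclg1, the subunit shared by both forms of the ligase, was listed at 58.6, 54.5, 57.3 and 57.4 FPKM against 59.9, 59.9 and 60.8 FPKM, with a log2 fold change of -0.08 (limma adjusted p = 0.32). Suclg2, the GDP-specific subunit, was listed at only 8.33 to 11.3 FPKM over all animals. Its fold change of -0.01 on the log2 scale turned above 0 under quantile normalization, upper quartile scaling, median centring and the transcript length correction. Sucla2 over Suclg2 was 7.75, 8.48, 7.80 and 7.31 in CrT-/y and 8.91, 8.32 and 10.4 in CrT+/y animals, which overlapped (exact permutation p = 0.0857, adjusted 0.326).

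Ogdh and Dlst encode E1 and E2 of the 2-oxoglutarate dehydrogenase complex, whose E3 is Dld. Ogdh was listed at 52.3, 51.5, 49.3 and 50.4 FPKM in CrT-/y and at 54.1, 54.7 and 56.3 FPKM in CrT+/y animals. Dlst was listed at 49.1, 47.6, 49.9 and 45.5 FPKM against 56.2, 52.3 and 50.1 FPKM. In neither did the groups overlap, though for Dlst CrT-/y replicate 2 and CrT+/y replicate 3 were less than 1 FPKM apart. The log2 fold changes of -0.11 and -0.14 had limma adjusted p of 0.19 each and were not called.

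**Figure D3:**
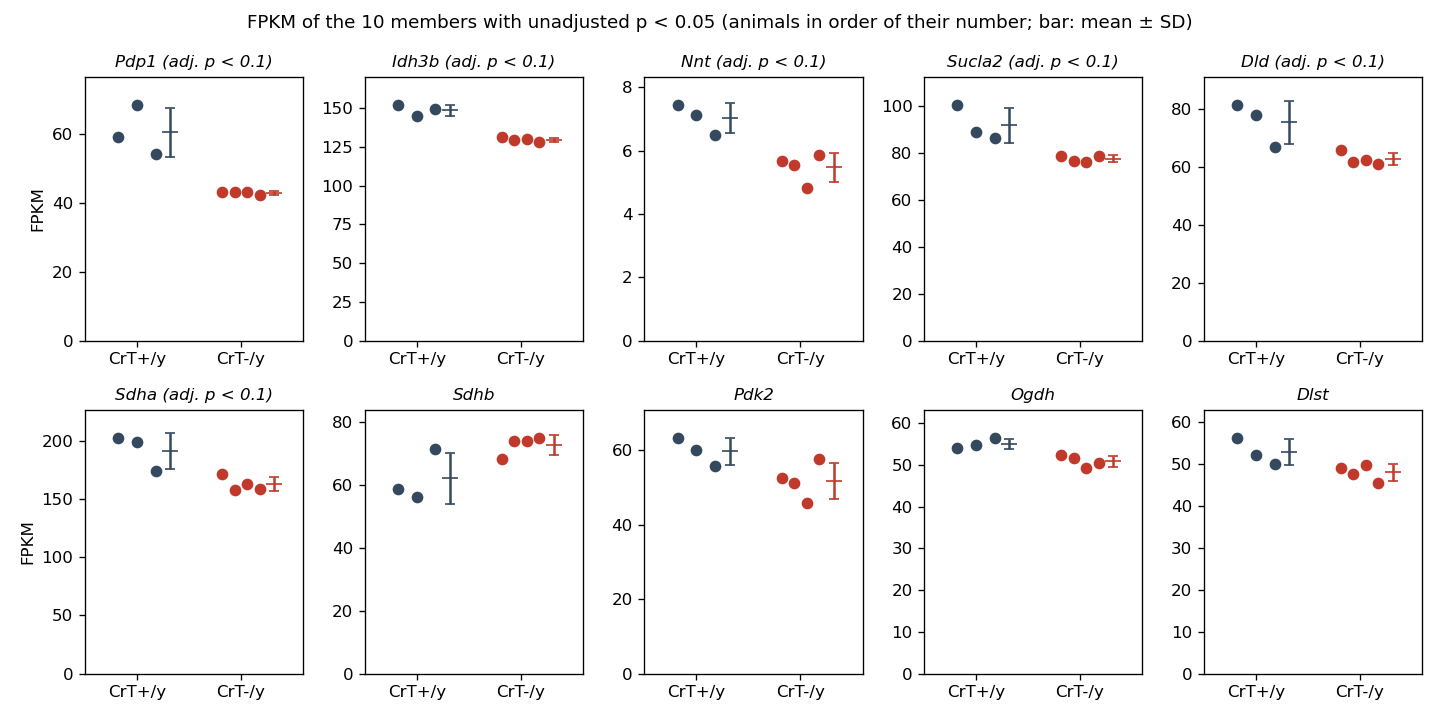
FPKM of each animal for the 10 members with an unadjusted p below 0.05, in order of p, with the mean and SD of each group (CrT+/y, n = 3, dark; CrT-/y, n = 4, red). In Pdp1 and Idh3b the red points are tightly grouped below the dark ones, whereas in Sdhb the third dark point lies among the red ones.

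The 4 subunits of complex II, which oxidises succinate and passes the electrons to the respiratory chain, did not move together. Sdha, the flavoprotein subunit, was listed at 171, 158, 163 and 159 FPKM in CrT-/y and at 202, 199 and 174 FPKM in CrT+/y animals. The lowest CrT+/y animal, replicate 3, lay just above the highest CrT-/y animal, and Sdha fell by 0.23 on the log2 scale (SE 0.066, limma adjusted p = 0.0824). Sdhb, the iron-sulfur subunit, had a mean in the opposite direction, with 68.2, 73.9, 73.9 and 74.8 FPKM in CrT-/y and 58.7, 56.3 and 71.4 FPKM in CrT+/y animals. CrT+/y replicate 3 lay above CrT-/y replicate 0, and the log2 fold change of 0.23 (SE 0.083) was not called (limma adjusted p = 0.13). It was called under quantile normalization (0.30, limma adjusted p = 0.0882), upper quartile scaling (0.30, 0.087) and array weights (0.28, 0.0571), and without CrT+/y replicate 3 (0.34, 0.00814).

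The membrane subunits Sdhc and Sdhd were listed at 69.7 to 78.9 and 54.2 to 58.9 FPKM in CrT-/y animals, and at 67.3 to 73.2 and 45.7 to 63.7 FPKM in CrT+/y animals. Their log2 fold changes of 0.07 and 0.10 were not called (limma adjusted p = 0.48 and 0.55). Sdha over Sdhb was 2.51, 2.14, 2.21 and 2.12 in CrT-/y and 3.45, 3.53 and 2.44 in CrT+/y animals. CrT+/y replicates 1 and 2 were high and replicate 3 lay among the CrT-/y animals (difference of the log2 ratio -0.47, exact permutation p = 0.0571, adjusted 0.326). Sdha lies on chromosome 13 (74322254-74350280, minus strand) and Sdhb on chromosome 4 (140961203-140979193, plus strand, mm10).

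From fumarate to oxaloacetate no member was called. Fh1, fumarate hydratase, was listed at 38.1 to 39.5 FPKM in CrT-/y and 38.7 to 44.7 FPKM in CrT+/y animals (log2 fold change -0.10, limma adjusted p = 0.31). The malate dehydrogenases were the most abundant members, with Mdh1, the cytosolic form, first and Mdh2, the mitochondrial form, second by mean FPKM over the 7 animals. Mdh1 was listed at 326, 324, 331 and 340 FPKM in CrT-/y and at 276, 266 and 342 FPKM in CrT+/y animals. Mdh2 was listed at 222, 217, 223 and 220 FPKM against 190, 186 and 226 FPKM. In both genes CrT+/y replicates 1 and 2 lay below all CrT-/y animals and replicate 3 above them. The log2 fold changes of 0.17 and 0.14 had limma adjusted p of 0.24 and 0.25. Mdh1 over Mdh2 stayed between 1.43 and 1.54 in all 7 animals.

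Among the enzymes of aspartate, glutamate and NADPH, only Nnt was called. Nnt, the transhydrogenase of the inner mitochondrial membrane that makes NADPH from NADH, was one of the weakest members at 5.66, 5.55, 4.83 and 5.87 FPKM in CrT-/y and 7.43, 7.13 and 6.49 FPKM in CrT+/y animals. The groups did not overlap, and Nnt fell by 0.35 on the log2 scale (SE 0.089, limma adjusted p = 0.0609). The C57BL/6J strain is known to carry a deletion within Nnt, and whether these mice carry it was not tested. Nnt lies on chromosome 13 (119335448-119408997, minus strand, mm10).

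Got1 and Got2, the cytosolic and mitochondrial aspartate aminotransferases, were listed at 156 to 167 and 131 to 139 FPKM in CrT-/y animals and at 144 to 180 and 126 to 140 FPKM in CrT+/y animals. Glud1, glutamate dehydrogenase, was listed at 86.6 to 93.6 against 87.4 to 93.2 FPKM, and Slc25a12, the mitochondrial aspartate-glutamate carrier, at 68.0 to 70.0 against 66.4 to 69.7 FPKM. The log2 fold changes of these 4 genes lay between 0.01 and 0.05, with limma adjusted p between 0.61 and 0.91. The 95% interval of Slc25a12, from -0.09 to 0.12, was among the narrowest.

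CrT+/y replicate 3 stood apart from the other CrT+/y animals in many members. In 9 members, or 25.7%, CrT+/y replicates 1 and 2 lay below all 4 CrT-/y animals while replicate 3 did not. These were Dlat, Pcx, Idh2, Sdhb, Sdhd, Mdh1, Mdh2, Got1 and Got2, and the same pattern was found in 9.81% of all genes tested. In 3 further members, Pdha1, Pdk2 and Pdk4, replicates 1 and 2 lay above all CrT-/y animals and replicate 3 did not, a pattern of 12.4% of all genes. The median coefficient of variation of the members was 7.41% in CrT+/y and 3.39% in CrT-/y animals, and it was larger in CrT+/y animals for 26 of the 35, or 74.3%, against 71.1% of all genes tested. By depth, CrT+/y replicate 3 was the deepest library of its group, at 1.08 relative to CrT-/y replicate 0 against 0.872 and 0.915 for the other two.

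**Figure D4:**
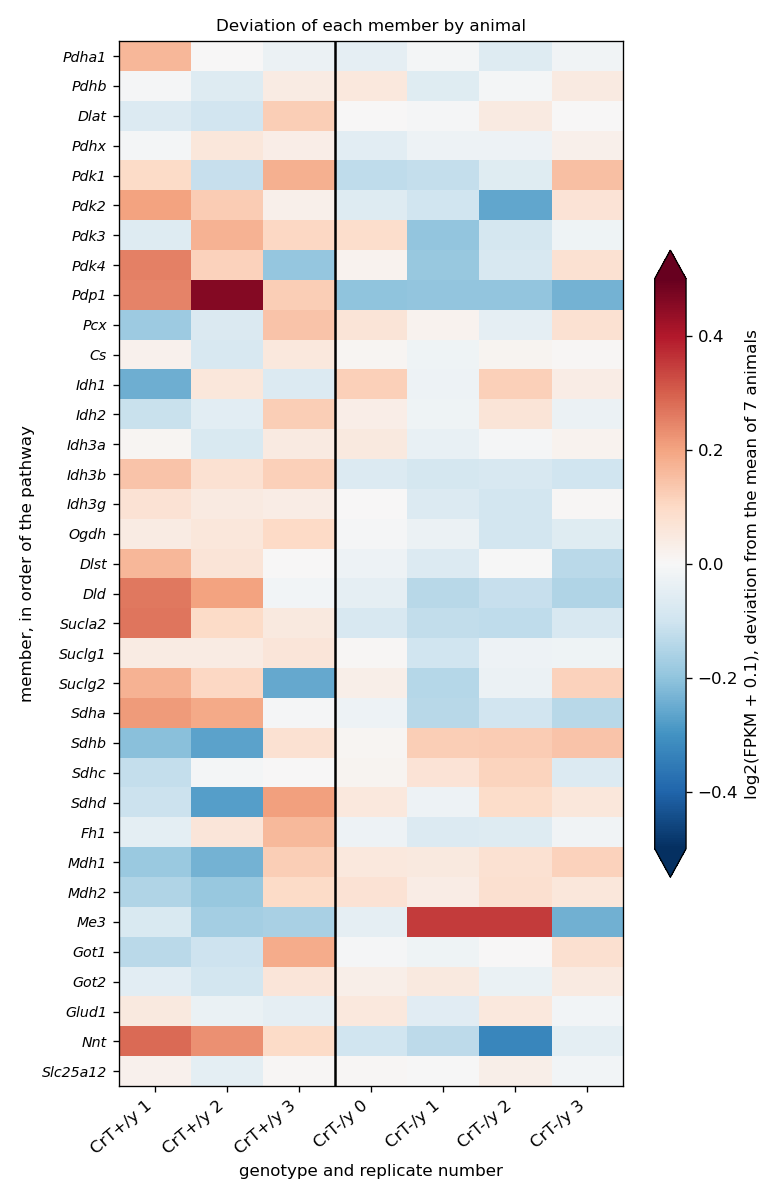
Deviation of log2(FPKM + 0.1) of each member (rows, in order of the pathway) from its mean over the 7 animals, with 1 column per animal; red is above and blue below the mean. In rows such as Sdhb, Sdhd, Mdh1 and Mdh2 the third CrT+/y column is red where the first and the second are blue, and Pdp1 is blue in all 4 CrT-/y columns.

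Without CrT+/y replicate 3, 13 members were called, 8 lower and 5 higher, among 3733 of the 12988 genes (28.7%). The lower members were the same 6 with Dlst (log2 fold change -0.17, limma adjusted p = 0.0669) and Pdk2 (-0.25, 0.0718). The higher ones were Sdhb (0.34, limma adjusted p = 0.00814), Mdh1 (0.28, 0.00884), Mdh2 (0.23, 0.0126), Sdhd (0.24, 0.0343) and Got1 (0.13, 0.0895). No label sets this animal apart, so its values were kept in all results above. Without CrT+/y replicate 2, Pdp1, Idh3b and Sucla2 were called, and without any of the other 5 animals, Pdp1 alone.

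**Figure D5:**
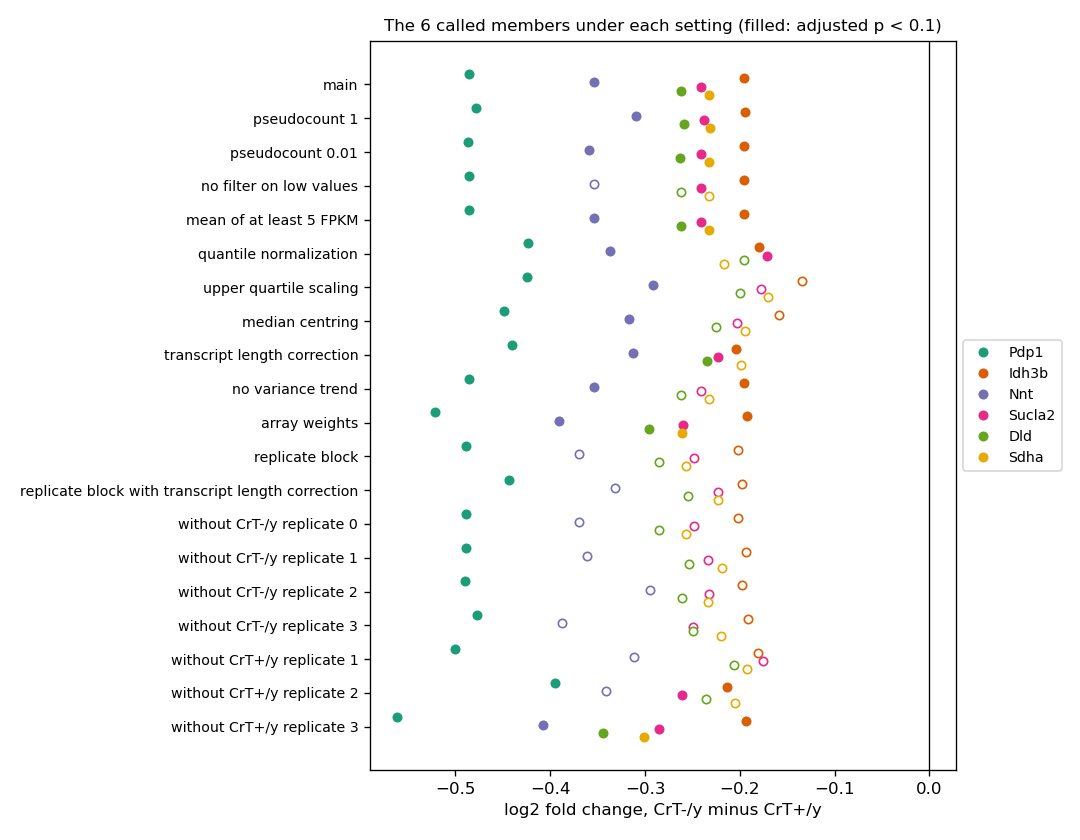
Log2 fold change (CrT-/y minus CrT+/y) of the 6 called members under the main setting and 19 alternatives (rows); a filled point has an adjusted p below 0.1. Pdp1 is filled in all rows, whereas the other 5 keep a value below 0 and lose the call in 9 to 14 of the 19 alternatives.

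Of 56 other genes of the pathway, 54 passed the filter (not Slc25a13 and Pck1) and 6 were called, 4 higher and 2 lower. These are 11.1% of the 54, near the 10.1% called among all genes tested. Their median log2 fold change was -0.04. The higher genes were 2 mitochondrial carriers, Gad1 and Bdh1. Of the 19 alternative settings, 12 called Slc25a1, and 9 each called Slc25a11, Gad1 and Bdh1. Slc25a1, the mitochondrial citrate carrier, was listed at 15.9, 17.1, 17.1 and 17.6 FPKM in CrT-/y and at 14.1, 14.5 and 15.0 FPKM in CrT+/y animals (log2 fold change 0.22, limma adjusted p = 0.0668). Slc25a11, the carrier that exchanges malate for 2-oxoglutarate, was listed at 53.5, 53.4, 55.6 and 51.7 FPKM against 41.4, 42.0 and 50.4 FPKM (0.27, limma adjusted p = 0.0748). In both the groups did not overlap.

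Gad1, which makes GABA from glutamate and is also a marker of inhibitory neurons, was listed at 132, 135, 124 and 132 FPKM against 98.4, 113 and 121 FPKM (log2 fold change 0.24, limma adjusted p = 0.097). The other markers of inhibitory neurons were not called. Bdh1, which interconverts the ketone bodies, was listed at 15.6, 17.0, 16.5 and 17.1 FPKM against 11.4, 10.8 and 15.7 FPKM, where CrT+/y replicate 3 lay above CrT-/y replicate 0 (0.40, limma adjusted p = 0.0857).

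D2hgdh, which returns D-2-hydroxyglutarate to 2-oxoglutarate, was called lower in the main setting and in 5 of the 18 alternatives that tested it. It was listed at 4.22, 3.80, 4.03 and 4.48 FPKM against 5.50, 4.78 and 4.98 FPKM (log2 fold change -0.29, limma adjusted p = 0.096). The pyruvate carrier subunits Mpc1 and Mpc2 gave log2 fold changes of 0.04 and 0.06 and were not called (limma adjusted p = 0.68 and 0.79).

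Transcript length moved with the fold changes over the whole table. Across genes, which are not independent replicates, Spearman's rho between log2 fold change and transcript length was -0.20 over the 35 members and -0.18 over 12917 genes with a length. After a correction with a smooth curve of length, Pdp1, Nnt, Idh3b, Sucla2 and Dld were called and Sdha was not (log2 fold change -0.20, limma adjusted p = 0.106).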

How the data were processed

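The authors deposited 1 table of FPKM per gene and animal. Per the paper's methods, paired-end reads (poly(A) libraries) were aligned to mm10, and fragments aligned uniquely to known exons and splice junctions were counted. The submitters' processing notes name Bowtie and Cuffnorm, and their versions are not given in the sources used here. No counts were used, so low FPKM steps gave relative depth only (pairs of libraries differed from additivity by at most 0.033 on the log2 scale). Each step held 19.3 to 24.4% of weak genes between CrT-/y libraries and 7.25 to 17.0% between genotypes. Number of columns without a sample was 0.

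Groups came from the sample labels. Values were tested as log2(FPKM + 0.1) over 12988 genes (mean FPKM of 1 or more), with limma 3.58.1 (R 4.3.3, trended variance, genotype as the only term) and Benjamini-Hochberg adjustment over all of them at 0.1, as the threshold of the study. A fold change on this scale understates that of weak genes. Means and SDs are of FPKM. The fit was tested on simulated data. Ratios were compared by exact permutation over animals (scipy 1.17.1). Gene positions and lengths came from GENCODE M21 (GRCm38) by symbol for 23310 and by synonym for 674 table rows, and promoters from RefSeq (GRCm38.p6). Genes named were all members, Slc6a8 and other pathway genes with an adjusted p below 0.1, with Mpc1, Mpc2, Pdp2 and called or overlapping genes added for context after their values were seen. Members, gene lists and tests were chosen with earlier results of these data known.

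Alternatives were pseudocounts of 1 and 0.01, no filter, a minimum of 5 FPKM, 3 other scalings, a transcript length correction, no variance trend, array weights, a replicate block with and without the length correction, and leaving out each animal. Marker lists not described in the results were oligodendrocyte precursors (20.5 to 23.8 FPKM in CrT-/y, 23.6 to 27.7 in CrT+/y) and microglia (111 to 118, 114 to 125). The others were inhibitory neurons (849 to 988, 916 to 934), in which Gad1 was called higher, and striatal neurons (65.5 to 163, 33.0 to 158). Reads, isoforms and protein sequences were not analysed here. Values of some other pathway genes are not reported here.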

Additional observations from a re-analysis of the deposited data

Results flagged for a closer look

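In 4 members 1 of the 4 CrT-/y animals lay far from the other 3, relative to the range of the group, by Dixon's test. This was found in 4 of 55 groups tested, and chance alone flags about 1 in 20 groups. The 55 groups held more than the 35 members, and all 4 flags fell on members. Sdhb was lowest in CrT-/y replicate 0 at 68.19 FPKM, with the others at 73.9 to 74.8 FPKM. Pdp1 was lowest in CrT-/y replicate 3 at 42.17 FPKM, with the others at 43.2 to 43.3 FPKM. Cs was lowest in CrT-/y replicate 1 at 94.1 FPKM, with the others at 96.1 to 96.4 FPKM. Dlat was highest in CrT-/y replicate 2 at 29.49 FPKM, with the others at 28.5 to 28.6 FPKM. The 4 values belong to 4 different animals. The CrT+/y group, with 3 animals, was too small for this test.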

How the results depend on the processing

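The count of members called lower (6) and of all genes called (1318) moved with the processing, and the causes were not tested. It was 3 members and 730 genes with no filter on low values, 3 members without the variance trend, and 2 members each under upper quartile scaling and median centring. Members called higher numbered 1 under quantile normalization, 1 under upper quartile scaling and 2 with array weights. The median of the members (-0.0146 on the log2 scale) became 0.0170 under quantile normalization, 0.0471 under upper quartile scaling, 0.0225 under median centring and -0.0504 with array weights. The share of higher genes among all calls was 28.6%, and 48.8%, 61.5%, 48.2% and 41.9% under quantile normalization, upper quartile scaling, median centring and the length correction. No scaling moved the median of all genes by more than 0.0615.

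Leaving out 1 animal gave 64 to 3733 genes called, 1 to 8 members lower, 0 to 5 higher and a median of the members from -0.0551 to 0.0117. The gene counts were 614, 64, 223 and 328 without CrT-/y replicates 0, 1, 2 and 3, and 253, 761 and 3733 without CrT+/y replicates 1, 2 and 3. Animals with the same number did not deviate together (correlations of -0.0781, 0.046 and -0.051 for numbers 1, 2 and 3). The labels do not state whether equal numbers mark littermates or a shared preparation. Correlations from so few animals cannot decide it, and the animals were not treated as pairs in the main fit. The replicate block, to which CrT-/y replicate 0 adds nothing because its number has no partner, left 1 member (Pdp1) among 575 genes, and with the length correction 1 (Pdp1) among 173.

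Reversals fell on members that were not called. Suclg2 became 0.0170, 0.0471, 0.0225, 0.0256 and 0.0118 under quantile normalization, upper quartile scaling, median centring, the length correction and the block with that correction. Pdha1 became 0.000139 under quantile normalization, Pdhx 0.0135 under upper quartile scaling and Idh3a -0.00056 under the replicate block. With 1 animal left out, log2 fold changes ranged from -0.147 to 0.069 for Suclg2, -0.00944 to 0.0442 for Pdhb, -0.0183 to 0.0924 for Dlat, -0.00659 to 0.156 for Pcx, -0.0349 to 0.0308 for Cs, -0.0226 to 0.0945 for Idh2, -0.0212 to 0.0398 for Idh3a, -0.00362 to 0.236 for Sdhd, -0.0277 to 0.132 for Got1 and -0.0106 to 0.0244 for Slc25a12. Limma adjusted p over the 19 alternatives ranged from 0.0223 to 0.173 for Idh3b, 0.023 to 0.173 for Nnt, 0.0157 to 0.188 for Sucla2, 0.0066 to 0.194 for Dld and 0.00908 to 0.212 for Sdha, and from 0.00814 to 0.307 for Sdhb. Idh3g, Suclg1, Ogdh and Dlst, whose groups did not overlap, did not pass the test (limma adjusted p = 0.29, 0.32, 0.19 and 0.19).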
